A study of Rattus norvegicus with 6 samples.

Results

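Tspo and 8 genes that work with it in cholesterol import and steroid synthesis (Star, Stard3, Dbi, Fdx1, Fdxr, Srd5a1, Vdac1 and Vdac2) were followed by RNA sequencing in dorsal root ganglia of rats, where the cell bodies of sensory neurons lie among glia, fibroblasts, vessels and resident macrophages. The 9 genes were chosen by name, with the higher level of Tspo after nerve injury already known from these libraries, and all 9 were found among the 14346 genes listed in at least 1 library. Ganglia were taken 7 days after partial sciatic nerve ligation (pSNL, 3 libraries), in which part of the sciatic nerve is tied, or 7 days after a sham operation (3 libraries). In pSNL some axons of the nerve are injured and others spared, so each ganglion holds both kinds of neuron. The labels give no strain, sex, age or spinal level and leave unsaid whether every library came from its own animal, so errors and p-values below cover only the spread among these 6 libraries, part of which may be technical.

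Tspo encodes the translocator protein of the outer mitochondrial membrane, once called the peripheral benzodiazepine receptor. Steroid synthesis starts when cholesterol reaches the inner mitochondrial membrane, where Cyp11a1 cuts its side chain with electrons passed from Fdxr to Fdx1. In nervous tissue the later enzymes make progesterone and its reduced derivatives, which act on GABA type A receptors. Tspo is also abundant in macrophages and activated microglia, and its ligands are used to image inflammation. Its part in steroid synthesis has been disputed since work on mouse knockouts. The comparison of pSNL with sham therefore asks whether the level of Tspo moved together with the steroid synthesis genes or with immune cell genes.

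The libraries held 4339565 to 4416121 estimated counts in pSNL and 4310643 to 4412391 in sham. Values below are CPM, counts scaled to the library size after correction by the trimmed mean of M values, unless FPKM, a level per gene length, is named. As a check of the labels, 6 genes known to respond to axon injury (Gap43, Sox11, Atf3, Sprr1a, Npy and Gal) were each higher in every pSNL library than in any sham library. Sham replicate 3 stood apart through 10 markers of central glia, which summed to 1994 CPM there and to 30.9 to 65.4 CPM in the other libraries. Skeletal muscle markers summed to 1316 CPM in pSNL replicate 3 and 768 CPM in sham replicate 3, against 162 to 245 CPM elsewhere. Most of the sum elsewhere came from Pvalb, at 145.9 to 231 CPM, while Ckm was at 0.69 to 2.75 CPM there. Ckm reached 161 CPM in pSNL replicate 3 and 85.5 CPM in sham replicate 3. Neuron markers were abundant in all libraries, at summed levels of 44805 to 48475 CPM in pSNL and 46545 to 57778 CPM in sham. In whole ganglia, fewer cells of a type and less RNA per cell cannot be told apart.

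Tspo was about 3 times as abundant after injury, while the 7 other genes of the set that could be tested lay close to their sham levels. Tspo was at 16.1, 29.8 and 22.3 CPM in pSNL replicates 1 to 3, against 8.02, 8.03 and 7.12 CPM in sham replicates 1 to 3. Every pSNL library lay above every sham library, and pSNL replicate 1 was the lowest of the injured ones. The means were 22.7 ± 6.86 CPM in pSNL and 7.73 ± 0.52 CPM in sham (SD, n = 3 each), a log2 fold change of 1.55 ± 0.24 (SE) with a 95% interval of 1.02 to 2.09. Among all 11091 tested genes 108 (0.974%) had a log2 fold change at least as large. These values rest on 71, 129 and 97 counts in pSNL and 35, 35 and 31 counts in sham, and the ratio of the summed counts, 2.94, had a 95% counting interval of 2.34 to 3.72. That interval covers counting error only.

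Because the pSNL and sham levels of Tspo were known when the genes were chosen, its difference is given as a description and no p-value is attached to any of the 9. In edgeR's quasi-likelihood fit over all genes, 1 of the 8 tested genes of the set, Tspo, passed an adjusted p of 0.05, in the higher direction. Over all tested genes 0.442% passed as higher and 0.0180% as lower, 0.460% together, and 3.02% passed with DESeq2, which also called Tspo alone among the 8. Tspo's log2 fold change lay between 1.30 and 1.75 when 1 library at a time was left out, but it passed the threshold in 1 of those 6 fits, the one without pSNL replicate 1.

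**Figure D1:**
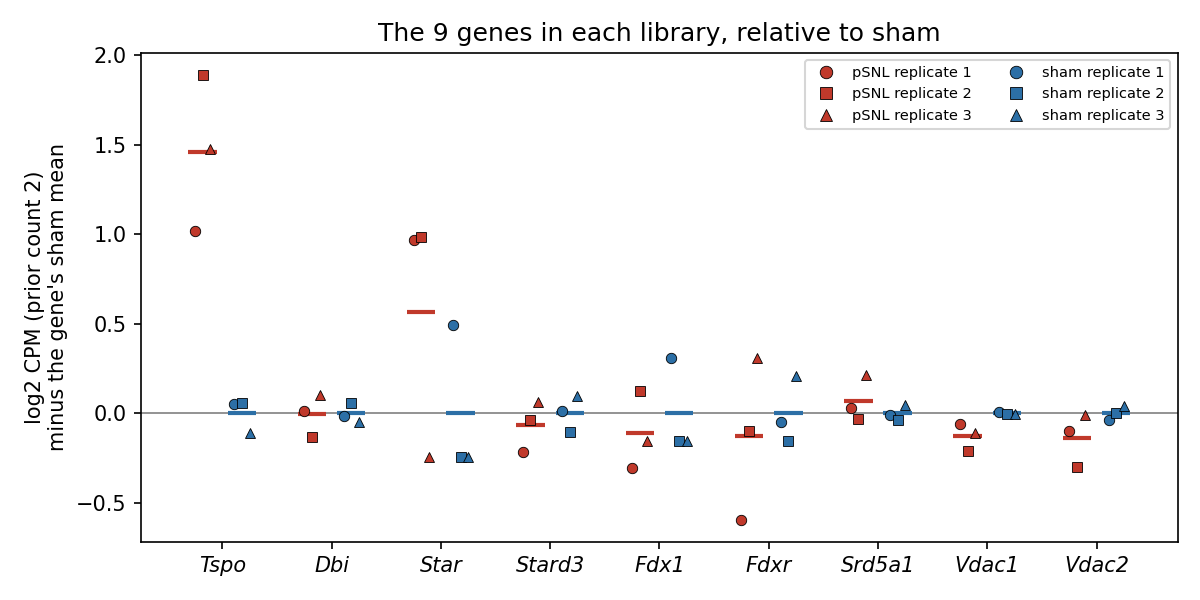
Level of each of the 9 genes in each library on the log2 CPM scale (prior count 2), as the difference from the gene's own sham mean; points are libraries and bars are group means, with pSNL left of sham. For Tspo the pSNL libraries lie 1.02, 1.89 and 1.47 above the sham mean, while those of the other 7 tested genes lie between -0.60 (Fdxr in replicate 1) and 0.31 (Fdxr in replicate 3) and those of Star, at 0.97, 0.99 and -0.25, rest on 5, 5 and 1 counts.

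Dbi encodes the acyl-CoA binding protein, also named diazepam binding inhibitor, a natural ligand of Tspo. Its means were close in both groups, at 454.4 ± 36.9 CPM in pSNL and 455.0 ± 17.2 CPM in sham (SD, n = 3 each). Its level was 459.5, 415 and 488.5 CPM in pSNL replicates 1 to 3 and 450.9, 474 and 440.3 CPM in sham replicates 1 to 3. The groups overlapped, and the log2 fold change was -0.002 ± 0.087 (SE), with a 95% interval of -0.195 to 0.191. No library of either group stood apart for this gene.

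Vdac1 and Vdac2 encode voltage-dependent anion channels, the main pores of the outer mitochondrial membrane, and Vdac1 has been described as a partner of Tspo. Vdac1 was at 451, 406 and 435 CPM in pSNL, against 473, 468 and 469.5 CPM in sham. All 3 pSNL libraries were lower than all 3 sham libraries, by a small amount (log2 fold change -0.13 ± 0.08, 95% interval -0.30 to 0.05). Over all tested genes 10.4% were lower in this way without overlap, and 11.1% were higher. Vdac2 was at 334, 289.9 and 355 CPM in pSNL, against 348, 358 and 368 CPM in sham. Its groups overlapped, with a log2 fold change of -0.13 ± 0.09 (95% interval -0.34 to 0.07). The Vdac genes are paralogs, and the sources used here do not give how reads were divided between close copies.

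Star and Stard3 encode proteins of the START lipid transfer family. Star, which moves cholesterol into mitochondria in adrenal and gonadal cells, was almost silent, with 5, 5 and 1 counts in pSNL and 3, 1 and 1 counts in sham. It did not reach the minimum count for the fit. The ratio of its summed counts, 2.20, had a 95% counting interval of 0.704 to 8.07, so no difference was detectable at this depth. Stard3, which binds cholesterol at late endosomes, was at 59.7, 67.7 and 72.5 CPM in pSNL and 70.1, 64.5 and 74.2 CPM in sham. The groups overlapped and the log2 fold change was -0.06 ± 0.11 (95% interval -0.30 to 0.17).

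Fdx1 (ferredoxin) and Fdxr (ferredoxin reductase) form the electron chain that serves the mitochondrial cytochromes P450, and also contribute to iron-sulfur cluster assembly. Fdx1 was at 6.58, 9.02 and 7.34 CPM in pSNL and 10.3, 7.34 and 7.35 CPM in sham. Fdxr was at 10.2, 14.6 and 19.5 CPM in pSNL and 15.1, 14.0 and 18.2 CPM in sham. Neither separated the groups, and pSNL replicate 1 was the lowest library for both. The log2 fold changes were -0.13 ± 0.26 for Fdx1 and -0.10 ± 0.24 for Fdxr. Their 95% intervals were -0.69 to 0.44 and -0.63 to 0.43, and these genes carried 29 to 85 counts a library.

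Srd5a1 encodes a steroid reductase that converts progesterone and testosterone to their dihydro forms. It was at 53.4, 51.1 and 60.8 CPM in pSNL and 52.0, 50.9 and 54.0 CPM in sham. The groups overlapped, with a log2 fold change of 0.07 ± 0.11 (95% interval -0.16 to 0.31). Apart from Tspo, the tested genes of the set thus spanned log2 fold changes of -0.13 to 0.07, and -0.35 to 0.12 over the fits that left out 1 library. Over all tested genes the median was -0.002, with quartiles at -0.147 and 0.183, and 49.4% of genes had a positive fold change, as 2 of the 8 in the set did.

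Per length, the 9 genes covered a wide range of levels, and the place of Tspo in their order differed between the groups. In sham the order was Dbi (797.6 ± 24.1 FPKM), Vdac1 (258 ± 2.98), Vdac2 (208 ± 7.9), Stard3 (34.4 ± 2.76), Srd5a1 (19.7 ± 0.81), Fdx1 (10.1 ± 2.02), Tspo (9.18 ± 0.51), Fdxr (8.80 ± 1.31) and Star (0.33 ± 0.23; SD, n = 3 each). The sham ranges of Fdx1, Tspo and Fdxr overlapped, so these did not differ in level beyond their spread. In pSNL Tspo was at 27.1 ± 8.04 FPKM, above Fdx1 at 9.33 ± 1.48 FPKM and Fdxr at 8.24 ± 2.49 FPKM without overlap. Its pSNL range, 19.50 to 35.52 FPKM, overlapped those of Srd5a1 (19.20 to 22.60) and Stard3 (29.96 to 35.42). By mean level Tspo ranked 5 of the 9 in pSNL and 7 in sham, and its sham rank was 6 without sham replicate 1 and 8 without sham replicate 2.

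**Figure D2:**
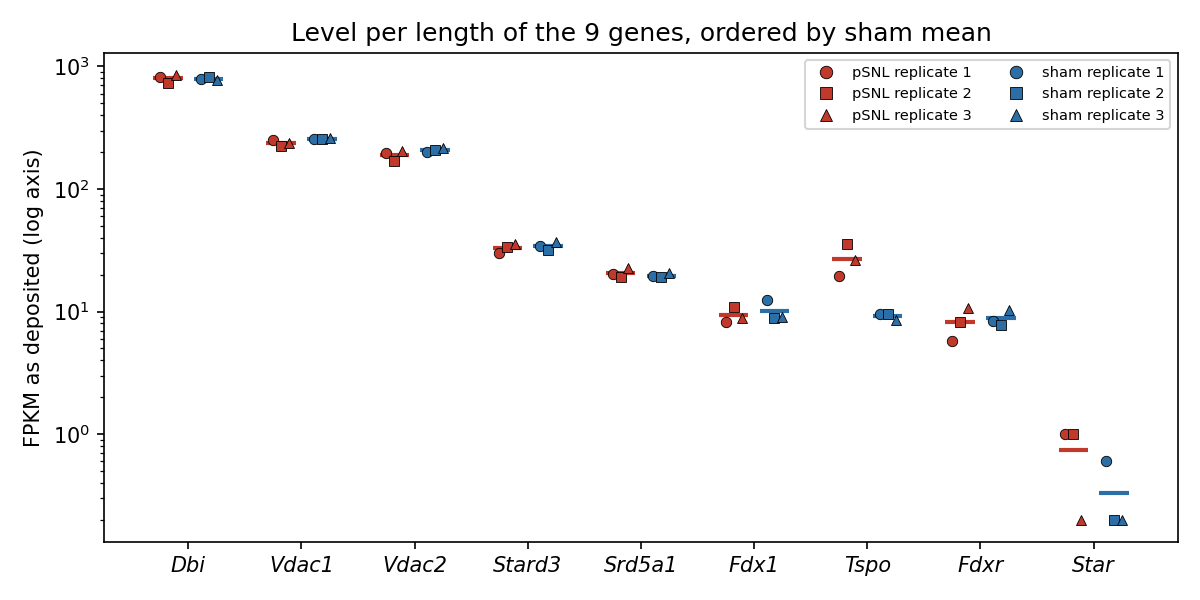
Level per length of the 9 genes in each library, as FPKM on a log axis, ordered by sham mean; points are libraries and bars are group means, with pSNL left of sham. Dbi lies highest at 729 to 849 FPKM in pSNL and 783 to 825 FPKM in sham, Star lies lowest at 0.20 to 1.01 FPKM in pSNL and 0.20 to 0.60 FPKM in sham, and the groups of Tspo lie apart at 19.50 to 35.52 FPKM in pSNL and 8.59 to 9.49 FPKM in sham.

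The rest of the steroid pathway was followed through lists of genes that are not in the set. Of 22 tested steroid enzymes and their redox partners none was called by edgeR, DESeq2 or limma, and 2 had an unadjusted p under 0.05, where 15.5% of all tested genes did. Their median log2 fold change was 0.02, and 20 of the 22 lay within 0.5 of 0. Cyp21a1, the steroid 21-hydroxylase of adrenal corticoid synthesis, was at 15.4, 17.8 and 24.1 CPM in pSNL and 14.4, 13.5 and 13.1 CPM in sham (edgeR adjusted p = 0.279). Hsd11b1, which regenerates active glucocorticoid, was at 5.68, 2.77 and 4.82 CPM in pSNL and 5.96, 6.20 and 12.2 CPM in sham, where the highest value belongs to the library with central glia transcripts (edgeR adjusted p = 0.309). Hsd17b12 and Hsd17b10, which act mainly on fatty acyl and branched-chain substrates, averaged 121 ± 9.14 and 44.4 ± 5.28 CPM in pSNL and 139 ± 8.67 and 52.8 ± 5.62 CPM in sham (edgeR adjusted p = 0.340 and 0.380).

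The enzymes that would make pregnenolone and progesterone were near the detection limit in both groups. Cyp11a1, the side-chain cleavage enzyme, had 1, 0 and 0 counts in pSNL and 2, 2 and 1 counts in sham. Cyp17a1 and Hsd3b2 were listed in no library. Hsd3b1, a 3β-hydroxysteroid dehydrogenase that oxidises pregnenolone to progesterone, had 5, 5 and 7 counts in pSNL and no count in any sham library. Set against an assumed 3 counts over the sham group the pSNL sum is 5.66-fold higher, a ratio that leaves out counting error. The gene was below the minimum for the fit, and without that filter its edgeR adjusted p was 0.0856 (unadjusted p = 0.0013). Hsd3b1 was picked out after its values were seen, and rats carry close copies of this gene. Akr1c14, the rat 3α-hydroxysteroid dehydrogenase that completes allopregnanolone, was at 5.22, 4.86 and 6.42 CPM in pSNL and 4.13, 2.75 and 5.06 CPM in sham, with overlapping groups (edgeR adjusted p = 0.527).

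Genes of cholesterol delivery, storage and uptake gave no call either. None of 11 tested genes passed in edgeR's test, DESeq2 or limma, and the median over the 11 was a log2 fold change of -0.07. An unadjusted p under 0.05 was found for 3 of the 11, where 15.5% of all tested genes had one. The 3 were Acsl4, Stard4 and Soat1, all with higher means in pSNL. Acsl4, an acyl-CoA synthetase that prefers arachidonate, was at 71.3, 90.2 and 70.6 CPM in pSNL and 53.4, 55.1 and 55.2 CPM in sham, without overlap (edgeR adjusted p = 0.0861). Stard4, a soluble sterol carrier, was at 17.7, 18.96 and 10.5 CPM in pSNL and 10.3, 7.34 and 10.8 CPM in sham, and Soat1, which esterifies cholesterol, was at 11.8, 24.0 and 13.3 CPM in pSNL and 8.94, 11.7 and 10.6 CPM in sham (edgeR adjusted p = 0.225 and 0.302). Acbd3, which binds Tspo in steroid-producing cells, belongs to the same list, and its log2 fold change was -0.07 ± 0.09 (edgeR adjusted p = 0.745). Lipe, the hormone-sensitive lipase, averaged 32.9 ± 3.42 CPM in pSNL and 39.2 ± 5.11 CPM in sham (edgeR adjusted p = 0.417).

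Of the steroid receptors and binding proteins 5 were tested and none passed in edgeR's test, DESeq2 or limma, nor at an unadjusted p under 0.05, with log2 fold changes of -0.04 to 0.10. Among them were the glucocorticoid and mineralocorticoid receptors Nr3c1 and Nr3c2 and the progesterone-binding membrane proteins Pgrmc1 and Pgrmc2. The progesterone receptor Pgr and the oestrogen receptors Esr1 and Esr2 were too low to test. Of 10 regulators of steroid-producing cells only Nr4a1, an immediate early gene, and Prkar1a were tested (edgeR adjusted p = 0.409 and 0.922; neither passed with DESeq2, limma or an unadjusted p under 0.05). Among 8 tested relatives and partners of Dbi in acyl-CoA metabolism none passed in edgeR's test, DESeq2 or limma, and 1 had an unadjusted p under 0.05. That gene, Acsl6, a neuronal acyl-CoA synthetase, was at 96.3, 82.99 and 90.6 CPM in pSNL and 104, 127 and 139.5 CPM in sham (edgeR adjusted p = 0.116).

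Other mitochondrial genes give the setting for Tspo, Vdac1 and Vdac2. Of 15 further outer membrane genes none passed in edgeR's test, DESeq2 or limma, 1 had an unadjusted p under 0.05 (Rhot1), and the log2 fold changes ran from -0.25 to 0.13, with a median of -0.04. The third channel of the family, Vdac3, had a log2 fold change of -0.03 ± 0.08 (edgeR adjusted p = 0.884). Of 17 genes of the mitochondrial matrix and inner membrane none passed in edgeR's test or limma, 9 had an unadjusted p under 0.05 and 2 passed with DESeq2 (Sdha and Atp5f1a). Their median was -0.18, 16 of 17 fold changes were negative, and for 10 genes every pSNL library lay below every sham library. Over all tested genes 10.4% were lower in this way and 15.5% had an unadjusted p under 0.05. Sdha, a subunit of succinate dehydrogenase, was at 226, 229.8 and 236 CPM in pSNL and 282, 280.0 and 315 CPM in sham (edgeR adjusted p = 0.0891). Neuron markers lay in the same direction, with a median of -0.26 over 11 tested genes and 8 negative (none passed in edgeR's test or limma, 6 had an unadjusted p under 0.05, 3 passed with DESeq2). The highest log2 fold change in these mitochondrial lists was 0.13, against 1.55 for Tspo. The part of neuronal RNA in the small negative values was not tested.

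**Figure D3:**
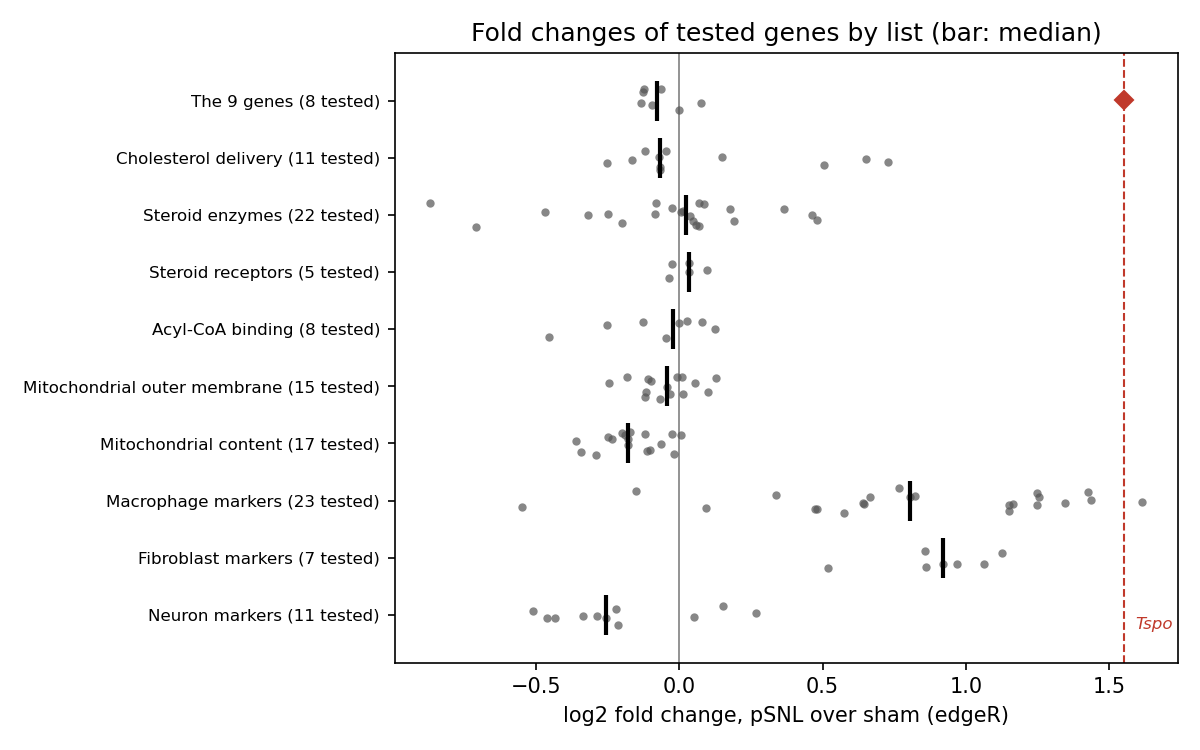
Log2 fold change of pSNL over sham for every tested gene of the set and of 9 lists; each point is a gene, black bars are medians, and the red diamond and dashed line mark Tspo at 1.55. The other tested genes of the set lie between -0.13 and 0.07. The cholesterol, steroid enzyme, receptor, acyl-CoA and mitochondrial lists have medians between -0.18 and 0.03, with single genes from -0.87 to 0.73. Macrophage and fibroblast markers have medians of 0.81 and 0.92.

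Most macrophage markers had higher means after injury, with fold changes that came near that of Tspo for several genes. Of 23 tested markers none passed in edgeR's test or limma, 13 had an unadjusted p under 0.05, and 6 passed with DESeq2. Their median log2 fold change was 0.81, 21 of 23 were positive, 10 were at 1 or more, and 9 were higher in pSNL without overlap. Over all tested genes 15.5% had an unadjusted p under 0.05 and 11.1% were higher in pSNL without overlap. Lyz2, the lysozyme of myeloid cells, was at 166, 282.5 and 281 CPM in pSNL and 112, 89.5 and 85.9 CPM in sham (log2 fold change 1.35 ± 0.22, edgeR adjusted p = 0.0639). Cd68, a lysosomal protein of macrophages, was at 7.49, 8.55 and 11.2 CPM in pSNL and 2.29, 4.36 and 3.45 CPM in sham (1.43 ± 0.32, edgeR adjusted p = 0.0821). The complement gene C1qc and the adaptor Tyrobp, both expressed in macrophages, had log2 fold changes of 1.44 ± 0.33 and 1.26 ± 0.33 (edgeR adjusted p = 0.107 and 0.113). Cd163 (-0.55) and Ctss (-0.15) were the 2 markers with a negative fold change, and the highest sham value of each was in sham replicate 3.

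Summed over the 25 markers, the macrophage level was 421, 704 and 715 CPM in pSNL replicates 1 to 3 and 278.5, 263 and 396 CPM in sham replicates 1 to 3. These sums did not overlap between the groups, but pSNL replicate 1 lay close to sham replicate 3. Lyz2 alone gave 166, 282.5 and 281 CPM of the pSNL sums and 112, 89.5 and 85.9 CPM of the sham sums. With the 23 tested markers weighted equally on the log2 CPM scale, the groups overlapped. Relative to the sham mean, pSNL replicate 1 was at 0.37 and sham replicate 3 at 0.43. Lymphocyte markers summed to 4.86 to 5.50 CPM in pSNL and 3.22 to 4.36 CPM in sham, and among them only Lck was tested (edgeR adjusted p = 0.853; not called by DESeq2 or limma, nor at an unadjusted p under 0.05). Neutrophil and mast cell markers summed to 25.5 to 51.3 CPM in pSNL and 32.3 to 34.9 CPM in sham, most of it from Kit, which sensory neurons can also carry. Neither Kit nor Csf3r, the tested genes of that list, passed in edgeR's test, DESeq2 or limma, or at an unadjusted p under 0.05.

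Markers of fibroblasts were higher in the same libraries as Tspo. All 7 tested fibroblast markers were higher in pSNL without overlap, as were 11.1% of all tested genes. Their median log2 fold change was 0.92, and 1 passed in edgeR's test. That gene, the matrix protein Mgp, rose to 77.2, 86.9 and 72.2 CPM in pSNL, against 49.1, 41.1 and 39.98 CPM in sham (edgeR adjusted p = 0.0172). The proteoglycans Lum and Dcn had log2 fold changes of 0.92 ± 0.18 and 1.07 ± 0.25 (edgeR adjusted p = 0.0662 and 0.129). Of 9 Schwann cell markers 6 were positive with a median of 0.47, and of 10 satellite glia markers 3 were positive with a median of -0.39 (none passed in edgeR's test or limma; 4 and 3 had an unadjusted p under 0.05, and 2 of each list passed with DESeq2). For Slc1a3 and Mag, glial genes that central tissue shares, sham replicate 3 held by far the highest value, as with Slc1a3 at 99.0 CPM, against 12.4 to 20.4 CPM in the other 5 libraries. Endothelial markers had a median of -0.05 over 8 genes, with none called by edgeR, DESeq2 or limma and none at an unadjusted p under 0.05. The part of each cell type in the level of Tspo was not tested.

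Library by library, Tspo was set beside the mean of each list on the log2 CPM scale (prior count 2), each relative to its own sham mean. Tspo was 1.02, 1.89 and 1.47 higher in pSNL replicates 1 to 3. The macrophage list was 0.37, 1.02 and 1.04 higher in the same libraries and the fibroblast list 0.71, 1.23 and 0.84. The 6 injury genes were 2.41, 3.45 and 3.27 higher. In each of these, as in Tspo, pSNL replicate 1 was the lowest injured library. The steroid enzyme list was at -0.09, -0.08 and 0.11, the cholesterol delivery list at 0.10, 0.15 and 0.05, and the other 7 tested genes of the set at -0.18, -0.10 and 0.06. These lists stayed within 0.2 of their sham mean in all 3 pSNL libraries. The steroid enzyme list and the other 7 genes also had pSNL replicate 1 lowest, and the cholesterol delivery list had pSNL replicate 3 lowest. A low pSNL replicate 1 therefore does not set the macrophage, fibroblast and injury lists apart from the steroid enzymes.

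The sham libraries add a contrast. In sham replicate 3 the macrophage list lay 0.43 above its sham mean, while Tspo was at -0.11 and the fibroblast list at -0.32. That library also held the central glia transcripts. Without it the macrophage list's median log2 fold change in edgeR's fit was 1.07 and that of Tspo was 1.49. On the log2 CPM scale, with the list taken as its mean over genes, Tspo exceeded the macrophage list by 0.65 over all libraries. That difference was 0.38 without sham replicate 3 and 0.545 to 0.83 without each of the other libraries. Tspo exceeded the steroid enzyme list by 1.48 and the cholesterol delivery list by 1.36. With prior count 0.5 the differences from the macrophage, steroid enzyme and cholesterol delivery lists were 0.64, 1.52 and 1.397.

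**Figure D4:**
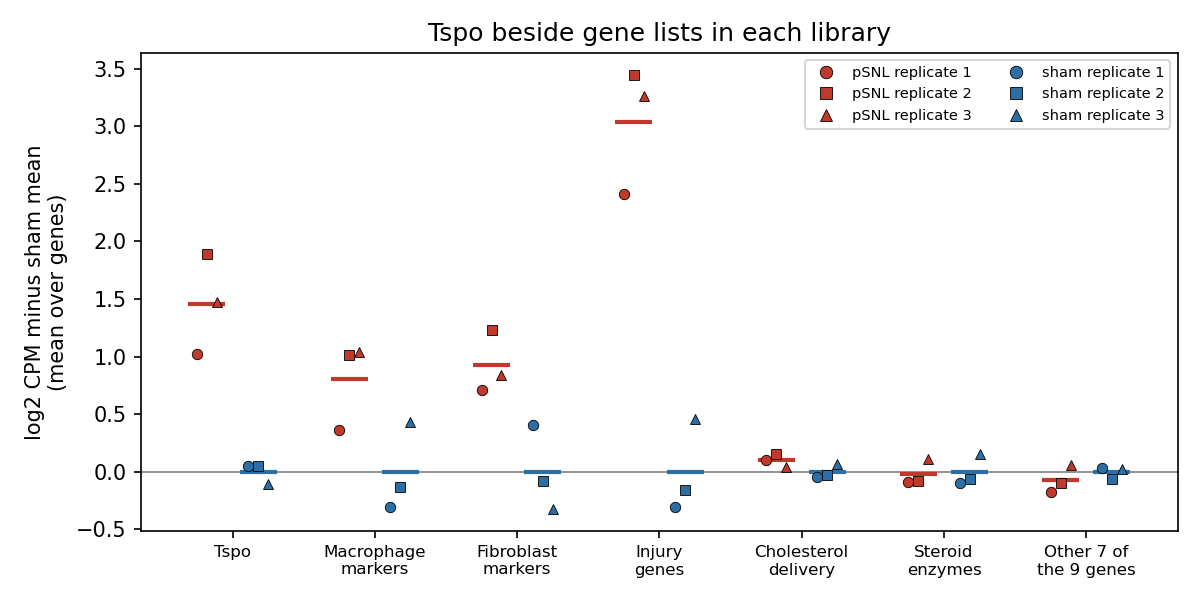
Tspo and the means of 6 groups of genes in each library, as log2 CPM minus the sham mean; points are libraries and bars are group means, with pSNL left of sham. Tspo, fibroblast markers and injury genes separate the groups, macrophage markers place pSNL replicate 1 (0.37) below sham replicate 3 (0.43), and the steroid groups stay near 0.

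The genes whose profile over the 6 libraries was most like that of Tspo were ranked by the root mean square difference of log2 CPM, each gene centred on its own mean. The 10 nearest of 11027 named genes were Cmtm3, Abca1, Cd4, RT1-DMb, Lyz2, Clec10a, Tgfbi, Adamts2, Tph2 and Fxyd5, at differences of 0.131 to 0.184. Lyz2, Clec10a, a lectin of macrophages and dendritic cells, RT1-DMb, which serves peptide loading on MHC class II, and Cd4, which rat macrophages carry, are linked to myeloid cells. Clec10a was at 16.4, 27.7 and 24.3 CPM in pSNL and 6.65, 8.49 and 8.96 CPM in sham, close to the values of Tspo itself. Abca1, the exporter of cellular cholesterol, was second, at 38.1, 69.1 and 45.9 CPM in pSNL and 18.8, 21.1 and 13.3 CPM in sham. Tgfbi and Adamts2 encode a matrix protein and a procollagen protease, and Tph2 is the neuronal enzyme of serotonin synthesis. Every one of these 10 was higher in pSNL without overlap, which their likeness to Tspo brings about.

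Among the lists, 12 of 23 macrophage markers and 6 of 7 fibroblast markers were within the 500 genes nearest to Tspo. The same held for 0 of 22 steroid enzymes, 2 of 11 cholesterol delivery genes (Soat1 and Acsl4) and none of the other 7 tested genes of the set. It also held for Nr4a1, 1 of 2 tested steroidogenic regulators, for 2 of 9 Schwann cell markers (Egr2 and Prx), for Cdh19 alone of 10 satellite glia markers and for 2 of 6 injury genes (Gap43 and Sox11). Of all ranked genes 4.53% lie within the nearest 500. The nearest of those 7, Srd5a1, ranked 3889. The measure also counts the size of a change, so genes that rose much more than Tspo lie far from it. Npy, Atf3, Sprr1a and Gal ranked 10146, 10644, 10964 and 10975, with log2 fold changes of 2.98, 3.64, 6.79 and 4.11. The measure includes the difference between pSNL and sham that chose Tspo, so the ranking is a description. With 6 libraries in 2 separate groups no correlation is given.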

How the data were processed

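RNA of 6 ganglion libraries was analysed from 1 deposited table per library. Per the file headers, each lists gene length, expected count and FPKM; the authors estimated the expected counts, of which 89.1% to 89.5% were whole, and computed FPKM from them in the deposited files. Reads passed through CASAVA 1.4 and Bowtie2, per the submitters' processing notes. Which program made the counts, on which build and annotation and with which strand setting, is not given in the sources used. Genes that a library does not list were set to 0. Gene IDs were matched to RefSeq symbols (assembly GRCr8, names only): 14227 by ID, 11 by transcript and 108 not at all. Expected counts were rounded and fitted with edgeR 4.0.16 in R 4.3.3 (TMM, default low-count filter, robust quasi-likelihood F test, Benjamini-Hochberg over 11091 genes); standard errors come from the F statistic. Alternatives used DESeq2 1.42.0 and limma 3.58.1. Samples were grouped by title. The members, the lists and the tests were chosen with earlier results of these data known. The genes named are the 9, the 6 injury genes, up to 4 genes with the smallest p per list described, those needed to name a small count, and the 10 nearest to Tspo; Acbd3, Vdac3, Akr1c14, Cyp11a1, Cyp17a1, Hsd3b1, Hsd3b2, Slc1a3 and Mag were added for their role or after their values were seen, and some list genes are not reported here. No library repeated another. Simulated counts were used to test the fit.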

Additional observations from a re-analysis of the deposited data

How the results depend on the processing

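Tspo's log2 fold change stayed between 1.30 and 1.75 in every alternative fit, and the 96 fold changes of the 8 tested genes under the 12 alternatives each lay within the replicate spread of the value reported. The number of genes of the set past the threshold was 1 with size factors of the RLE type, no low-count filter, DESeq2, the replicate block and limma on log2(FPKM + 0.1); with 1 library left out it was 0 to 1, and it was 0 without replicate 3 of both groups, an alternative added after the data were seen. The number of genes called over all, 51, was 91 with no filter, 334 with DESeq2, 111 with the replicate block, 89 without replicate 3 of both groups and 5 to 217 with 1 library left out. Of listed genes outside the set, 4 were called, against 24 with DESeq2, 8 with the replicate block and 1 to 11 with 1 library left out. The labels link same-numbered libraries by number only. Their deviations from the group means correlated at 0.03, 0.01 and 0.12, and only replicates 3 correlated best with their own number. Replicates 3 also shared the highest skeletal muscle sums, at 1316 CPM in pSNL and 768 CPM in sham. Whether same-numbered libraries shared a batch was not tested. Tspo's sham rank per length was 6 to 8 with 1 library left out. Counts under about 30 a library, as for Star, Cyp11a1 and Hsd3b1, limit what this depth can show.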
